A study of Mus musculus with 6 samples.

Results

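Megakaryocyte-like cells without Klf1 were selected from single-cell RNA profiles of lineage-negative (Lin-) haematopoietic stem and progenitor cells, and they numbered 546 of 24307 kept cells. A kept cell had at least 500 detected genes. A selected cell had at least 3 UMIs (unique molecular identifiers, 1 per captured transcript) summed over Pf4, Gp1bb, Gp9 and Gp5, called platelet-gene UMIs here. It also had no UMI of Klf1 or of the T cell genes Cd3d, Cd3e and Cd3g, less than 0.5% of its UMIs from Elane, and at most 2 UMIs of the basophil genes Ms4a2, Fcer1a, Cd200r3 and Cyp11a1. Those 13 genes chose the cells, so their levels are given as a description and were left out of every test.

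The cells came from 3 samples labelled Stag2 KO (KO1, KO2 and KO3) and 3 labelled Stag2 wt (WT1, WT2 and WT3), which the series describes as mice. Stag2 encodes a subunit of cohesin, the protein ring that pairs sister chromatids and helps fold chromatin into loops. How the gene was deleted, and the strain, age and sex of the mice, are not stated in the labels, and both groups share the depletion of cells with mature lineage markers. Values of 3 samples are given in the order KO1 to KO3 for KO mice and WT1 to WT3 for wt mice. The selected cells held 363531 to 1363771 UMIs per sample, with 160, 69 and 124 cells in KO mice against 36, 71 and 86 in wt mice.

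Megakaryocytes are the bone marrow cells that shed platelets. They arise from stem cells directly or through progenitors shared with red cells, and along the way they switch on the receptors of the GPIb-IX-V complex (Gp1ba, Gp1bb, Gp9 and Gp5), the fibrinogen receptor (Itga2b with Itgb3) and the cargo of alpha granules (Pf4, Ppbp and Vwf). The transcription factors Gata1, Fli1, Runx1 and Nfe2 drive these genes, while Klf1 directs the red cell path.

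The selected cells carried megakaryocyte genes that the rule did not read. Itga2b, the fibrinogen receptor chain CD41 and the defining marker that the rule left out, stood at 220.3 CPM (UMIs scaled to a total of 1000000 per sample, mean of 6 samples, range 168 to 268), against 57.1 CPM in all other kept cells, and was higher in 6 of 6 samples. Treml1, an alpha granule receptor, stood at 64.2 against 1.56 CPM. The thrombin receptor genes F2r (103 against 12.8 CPM) and F2rl2 (40.7 against 1.80 CPM) and Rab27b, a GTPase of granule secretion (86.8 against 5.54 CPM), were higher in 6 of 6 samples as well. So were the transcription factors Zfpm1, the Gata1 partner FOG1 (97.1 against 13.1 CPM), Meis1 (193 against 27.9 CPM), Fli1 (154 against 62.0 CPM) and Gata1 (62.9 against 17.4 CPM).

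Some genes of late, platelet-forming megakaryocytes were almost absent. Tubb1, the tubulin of the platelet rim, and Gp6, the collagen receptor, each had 1 UMI over all selected cells, of 4822508 UMIs in total. The myosin light chain gene Myl9 had 4 UMIs. Markers of basophils, granulocytes and lymphocytes were low. The rule sets part of this, since it left out cells with more basophil, Elane or Cd3 UMIs than its limits. Of the genes with at least 50 UMIs in the selected cells, 5 of 5 on the basophil and mast cell list, 8 of 8 on the neutrophil list and 6 of 6 on the dendritic cell list were lower than in all other cells in 6 of 6 samples, where 13.5% of all such genes were. Mcpt8, a basophil protease, stood at 139 against 4538 CPM in the other cells, Mpo of granulocyte progenitors at 124 against 2302 CPM and the T cell receptor gene Trbc2 at 1.95 against 76.4 CPM, and the macrophage gene C1qa had no UMI, which allows up to 3 counts.

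Genes of early red cell progenitors were not low as a group. Summed over the list without Klf1, they held 1028 to 1675 CPM in the selected cells against 473 to 819 CPM in all other cells. Of 9 with at least 50 UMIs, 5 were higher in 6 of 6 samples and 2 lower, where 23.8% of all such genes were higher. Car2, a carbonic anhydrase, stood at 805 against 226 CPM (mean of 6 samples), the water channel gene Aqp1 at 62.0 against 17.7 CPM and the erythropoietin receptor gene Epor at 17.2 against 4.45 CPM. Car1, the carbonic anhydrase of red cells, was lower at 60.1 against 165 CPM, with 239 CPM in WT1 and 8.67 to 46.4 CPM in the other 5 samples.

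**Figure D1:**
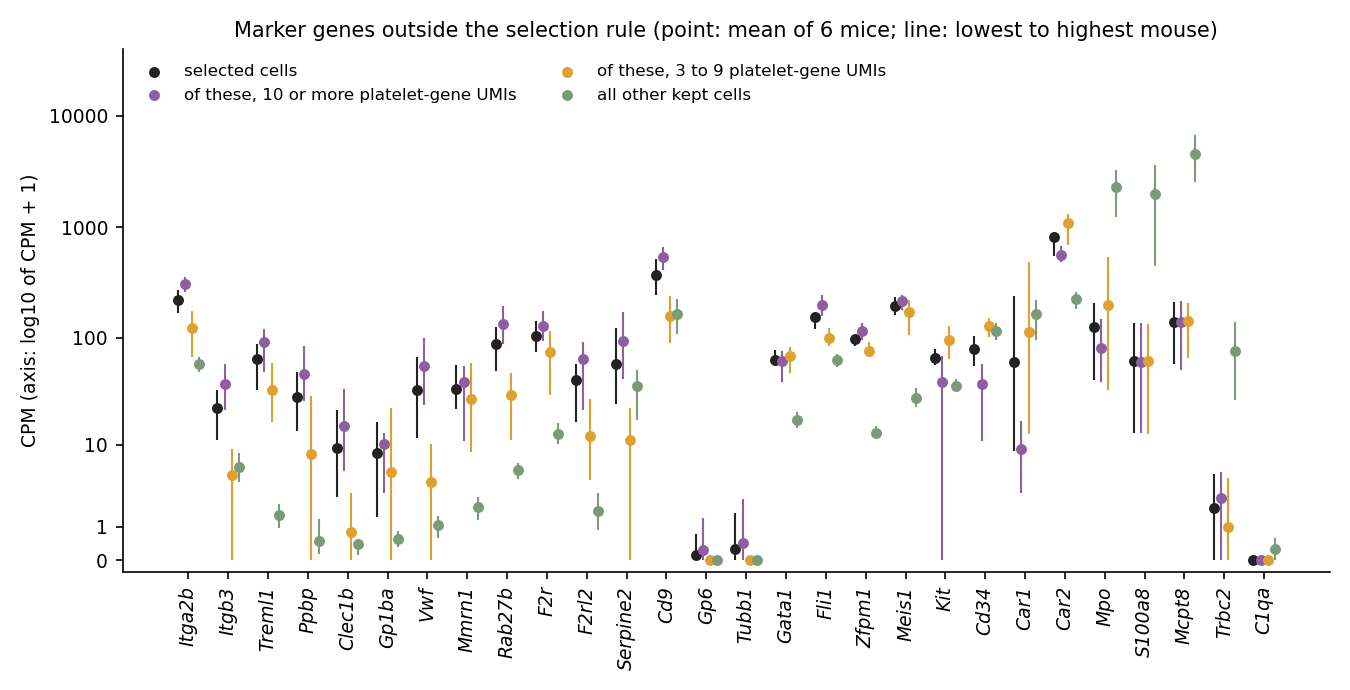
Level of marker genes outside the selection rule, in CPM on a log axis, in the selected cells, in the selected cells with 10 or more and with 3 to 9 platelet-gene UMIs, and in all other kept cells. Points are means of 6 mice and lines run from the lowest to the highest mouse. Itga2b, Treml1 and Rab27b lie above the other cells in every mouse, while Gp6 and Tubb1 lie near 0.

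The selected cells ran from 3 to 525 platelet-gene UMIs, with a median of 9, 6 and 7 in KO mice against 11, 14 and 11 in wt mice. Just inside the threshold, 101 cells had 3 UMIs, and just outside it 256 cells had 2. In the clusters that the authors deposited per sample, 78.2% to 100% of the selected cells lay in 2 clusters. The selected cells had a median of 12 to 79 platelet-gene UMIs in 1 of these and of 4 to 6.5 in the other. They were a minority of both, 17 to 62 of 395 to 664 kept cells in the first and 18 to 74 of 318 to 855 in the second. The selected cells are described below as a range, with 272 of at least 10 platelet-gene UMIs set beside 274 with 3 to 9.

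Gene levels differed between the ends of that range. Of listed genes with at least 50 UMIs, 4 of 11 of alpha granules and 5 of 12 of adhesion receptors were higher at the upper end in 6 of 6 samples (1 and 0 were lower), where 5.24% of all such genes were. Of 17 stem cell genes 7 were higher at the lower end in 6 of 6 samples and 1 at the upper, where 6.26% of all such genes were higher at the lower end. The share of cells with Hlf, Mecom, Procr, Mllt3 or Meis1 UMIs, with every cell thinned to equal depth, kept no such order. With 10 or more platelet-gene UMIs it was 42.6%, 42.7% and 42.1% (KO) and 36.3%, 37.0% and 36.4% (wt). With 3 to 9 it was 42.1%, 36.9% and 38.3% (KO) and 34.9%, 41.7% and 42.2% (wt). KO1, KO2, KO3 and WT1 were higher at the upper end, and WT2 and WT3 at the lower. With 10 or more platelet-gene UMIs, Vwf, the adhesion protein von Willebrand factor, stood at 54.9 CPM (mean of 6 samples) against 4.11 CPM with 3 to 9, and Serpine2, a thrombin inhibitor of alpha granules also known as protease nexin-1, at 93.3 against 11.2 CPM. Itgb3 (37.8 against 4.92 CPM), Ppbp (46.6 against 8.0 CPM), the podoplanin receptor gene Clec1b (15.2 against 0.793 CPM) and the tetraspanin gene Cd9 (542 against 156 CPM) followed the same order, each in 6 of 6 samples. Cd34, a surface protein of progenitors, was higher at the lower end (37.7 CPM with 10 or more and 128 CPM with 3 to 9). So were the stem cell factor receptor gene Kit (39.7 and 94.8 CPM) and the PU.1 gene Spi1 (35.2 and 94.2 CPM). Sox4 (102 and 303 CPM) and the stem cell gene Hlf (14.2 and 37.8 CPM) were too. Each of these genes kept this order in 6 of 6 samples. Gata1 (61.5 and 67.6 CPM), Gata2 (151 and 170.3 CPM) and Fcer1g, a receptor subunit on the adhesion list (145 and 160 CPM), kept no such order over the samples. These values describe the range, since the platelet-gene UMIs define its ends.

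**Figure D2:**
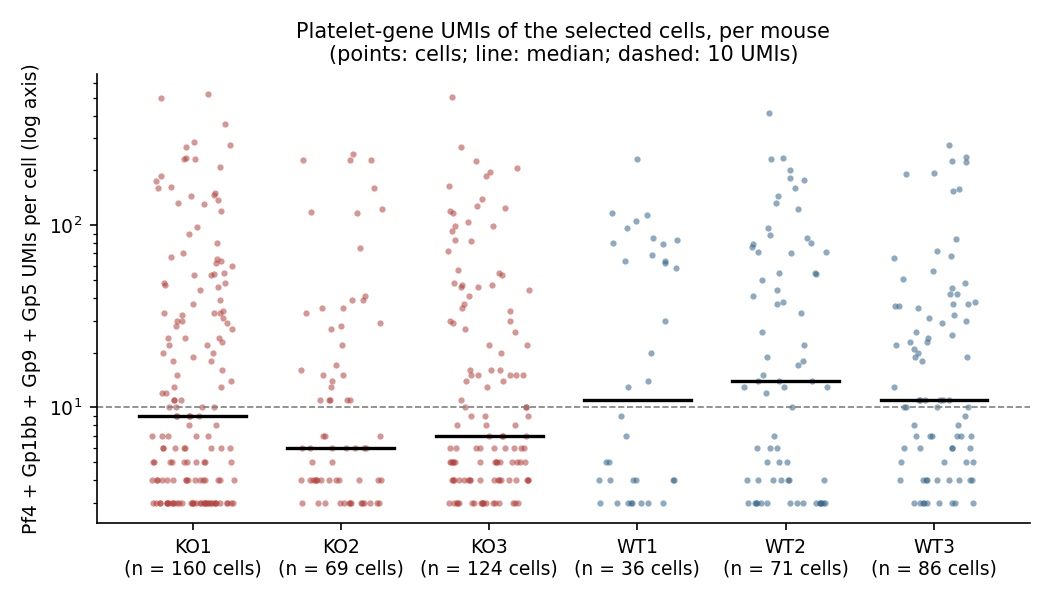
Summed UMIs of Pf4, Gp1bb, Gp9 and Gp5 in each selected cell, on a log axis, by mouse. Points are cells, black lines are medians (9, 6 and 7 in KO mice, 11, 14 and 11 in wt mice), and the dashed line marks 10 UMIs.

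The genes of the rule were not all shifted alike within the selection. Pf4, the chemokine platelet factor 4, stood at 4654, 2685 and 3465 CPM in KO mice against 3656, 4535 and 4677 CPM in wt mice. Gp1bb stood at 183, 128 and 154 CPM against 138, 195 and 201 CPM, and Gp9 at 217, 177 and 188 CPM against 138, 150.3 and 189 CPM. Gp5 stood at 123, 144 and 108 CPM against 79.8, 114 and 84.5 CPM. The genotypes overlapped in all 4 genes. Elane, which the rule capped, was at 152, 204 and 132 CPM (KO) and 71.5, 65.0 and 146 CPM (wt).

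The first comparison asked how common these cells were in each genotype. They made up 3.58%, 2.84% and 3.30% of the kept cells in KO mice against 1.46%, 1.61% and 1.27% in wt mice. Every knockout sample lay above every wild type sample, and the means were 3.24% ± 0.373 and 1.45% ± 0.170 (SD, n = 3 each), a 2.24-fold higher share. The exact 95% binomial interval, which covers counting error only, ran from 2.21% to 3.58% in KO2, the lowest knockout sample, and from 1.26% to 2.02% in WT2, the highest wild type sample. The 2-sided exact permutation test gave p = 0.1, the smallest value that 3 against 3 allow, and 0.167 after Benjamini-Hochberg adjustment over 5 such tests.

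Depth moved with genotype and bears on any UMI threshold. The median depth of the other kept cells was 5918, 5688 and 5903 UMIs (KO) and 4310, 4925 and 3594 (wt). Every cell was then thinned to 2000 UMIs, with 577 knockout and 2530 wild type cells below that depth left out, and the rule was applied to the thinned counts. The shares were 1.87% ± 0.336 and 1.08% ± 0.182 (SD, n = 3 each), 1.72-fold apart and without overlap (exact permutation p = 0.1). Platelet-gene cells that lost their Klf1 UMIs in thinning could enter this share. Such cells with Klf1 were 3.86 times as common in KO mice before thinning, and their part in the thinned ratio was not tested. Among T cells (2 or more Cd3 UMIs), which should lack platelet genes, 1 of 400 in KO and 3 of 1632 in wt mice reached the threshold of 3, at median depths of 2475 to 3586 UMIs. Among the samples whose title code starts with XA, which are all knockout samples and WT1, the share was 2.21 times that of WT1.

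The ratio between the genotypes was 1.83 at the upper end of the range, 2.76 at the lower end and 3.86 in platelet-gene cells that did carry Klf1. Cells with 3 to 9 platelet-gene UMIs made up 1.77% ± 0.141 of KO and 0.640% ± 0.101 of wt cells (SD, n = 3 each). Cells with 10 or more were 1.47% ± 0.244 and 0.807% ± 0.125. The 175 Klf1-positive cells that otherwise met the rule were 1.26% ± 0.121 and 0.326% ± 0.149. Cells with Klf1 and no platelet-gene UMI went the other way, with 2.10% ± 0.221 and 3.6% ± 0.354. No genotypes overlapped in any of these 4 classes, and differences between the folds were not tested.

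**Figure D3:**
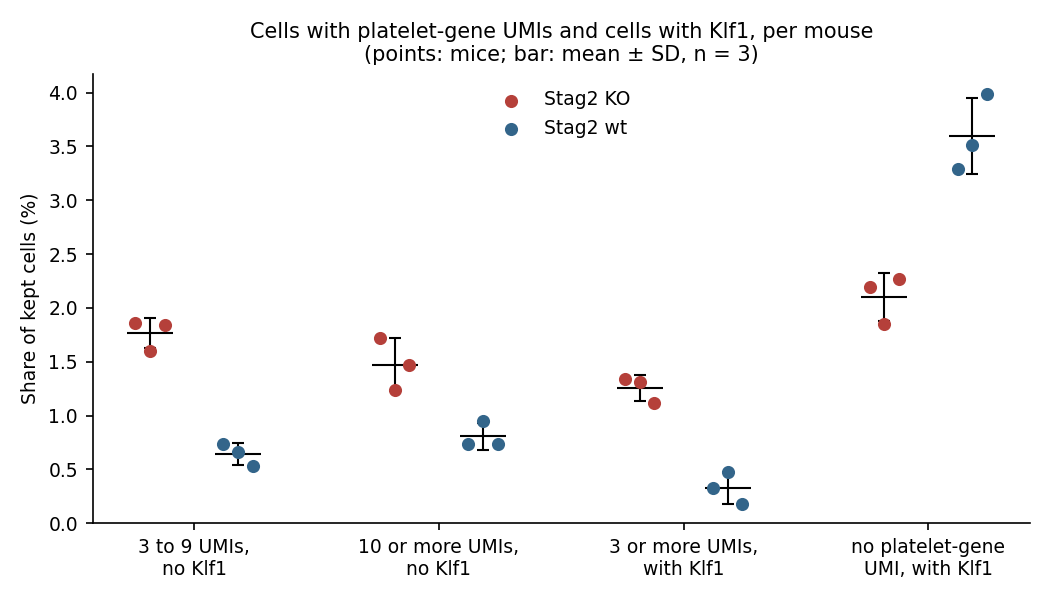
Share of kept cells in 4 classes by platelet-gene UMIs and Klf1, in percent, per mouse. Points are mice and bars are means with SD (n = 3). The knockout mice lie above the wild type mice in the 3 classes with platelet genes and below them among cells with Klf1 alone.

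Within the selection, cells with 10 or more platelet-gene UMIs were a smaller share in KO mice. They were 48.1%, 43.5% and 44.4% of the selected cells in KO mice against 50%, 59.2% and 58.1% in wt mice. The genotypes did not overlap, although KO1 and WT1 lay close, and the share was not tested because the same UMIs define the selection. This difference in makeup accompanies every gene comparison below, and values within each end of the range are given beside the genes that follow it.

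Selected cells held more UMIs than the other cells of their sample in every mouse, by a factor that was smaller in KO mice. Their median was 8132, 8949 and 8430 UMIs in KO mice against 9720, 9008 and 6685 in wt mice. Divided by the median of all other kept cells of the same sample, this gave 1.37, 1.57 and 1.43 (KO) and 2.26, 1.83 and 1.86 (wt). The means were 1.46 ± 0.103 and 1.98 ± 0.238 (SD, n = 3 each) and did not overlap (2-sided exact permutation p = 0.1, adjusted p = 0.167). The divisor itself was larger in each knockout sample, and the numerators overlapped.

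The shares of selected cells with stem cell, platelet and division transcripts were compared after thinning each cell to 2000 UMIs. At least 1 UMI of Hlf, Mecom, Procr, Mllt3 or Meis1, all genes of stem cells, was expected in 40.6% ± 1.55 of knockout and 37.8% ± 1.87 of wild type cells (SD, n = 3 each; exact permutation p = 0.1, adjusted p = 0.167). The genotypes did not overlap, but they did at a depth of 1000 UMIs (23.7% ± 1.22 and 22.1% ± 1.99, exact permutation p = 0.4), and unthinned shares were 86.4% ± 0.828 and 77.4% ± 7.38. T cells gave 4.72% to 8.49% for the same genes. At least 1 UMI of Ppbp, Treml1, Tubb1, Gp6 or Clec1b was expected in 14.9% ± 1.83 and 14.1% ± 4.73 of the selected cells (exact permutation p = 0.9; unthinned 40.5% ± 6.17 and 40.3% ± 8.46), and T cells gave at most 0.744%. At least 2 UMIs of 8 mitotic genes were expected in 20.7% ± 1.91 and 16.8% ± 4.14 (exact permutation p = 0.3; unthinned 39.8% ± 2.62 and 38% ± 8.58). For the platelet and mitotic transcripts the genotypes overlapped, WT1 being lowest for the first at 8.76% and WT2 for the second at 12.3%.

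Gene expression was compared on the UMI counts summed over the selected cells of each sample, with edgeR's quasi-likelihood test. Stag2, the targeted gene, stood at 26.4, 21.7 and 13.5 CPM in KO mice against 49.5, 47.7 and 36.5 CPM in wt mice, with no overlap. Its log2 fold change of -1.12 ± 0.28 (SE) rested on 139 UMIs and missed the threshold (edgeR adjusted p = 0.0552), while in all other cells it was -1.05 (edgeR adjusted p = 5.20e-04). The deleted part of Stag2 is not given in the labels, and 3' tags can lie outside it. Stag1, the paralogue that can replace Stag2 in cohesin, stood at 50.2 ± 4.79 and 43.1 ± 2.29 CPM (SD, n = 3 each; log2 fold change 0.17, edgeR adjusted p = 0.846). None of the 13 tested genes of cohesin and its loaders passed. Of them 1, Stag2, had a nominal p under 0.05, where 10.6% of all tested genes did. A positive log2 fold change was seen in 12 of the 13, with a median of 0.16. The genotypes did not overlap in 5 of the 13, where 16.5% of all tested genes did not. Summed over the list they overlapped, at 768 to 902 CPM in KO and 688 to 779 CPM in wt mice.

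Of 5944 tested genes 61 passed at an adjusted p of 0.05, which is 1.03%, with 17 higher (0.286% of those tested) and 44 lower (0.74%) in the knockout cells. The genotypes did not overlap in 59 of the 61, the exceptions being Hist1h2ap and Igkc, where 16.5% of all tested genes did not overlap. The median log2 fold change of all tested genes was -0.00. Of the 61, 36 also passed in the same direction in all other kept cells, where 11.1% of genes passed, and 1 passed there in the opposite direction, which was Serpine2. Within the ends of the range, 31 of 4345 genes (0.713%) passed at 10 or more and 21 of 3450 (0.609%) at 3 to 9 platelet-gene UMIs, 26 and 20 of them among the 61 and in the same direction. With the title code prefix as a covariate, which sets the knockout samples against WT1 as the only wild type sample of their prefix, 10 genes passed, all lower and 7 of them among the 61. That covariate ended each call named below except those of Ifitm1, Ifitm3, Polr2l and Rpl35. In another setting every kept cell was thinned to 2000 UMIs and the rule was applied again to the thinned counts. The cells tested there therefore differ from the selected cells, and gene values with thinned cells below come from them. In that setting 4 genes passed, 3 of them among the 61. Of the called genes named below that could be tested there, Rpl35 alone passed. The counts without KO1, KO3, WT2 and WT3 were 28, 27, 30 and 33 by edgeR, so 1 library moved the count by more than 1.5 times.

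Alpha granule cargo held 2 genes that fell, Serpine2 and Vwf. Of 22 listed genes 10 were tested, 0 rose, and the median log2 fold change was -0.11. Of all tested genes 0.286% rose and 0.74% fell. Serpine2 (chromosome 1, 79794197 to 79861180, minus strand of GRCm38) stood at 39.6, 40.6 and 24.3 CPM in KO mice against 46.8, 121 and 76.2 CPM in wt mice. The lowest wild type sample, WT1, lay just above the highest knockout sample. On the log2 scale Serpine2 fell by 1.36 ± 0.26 (SE, edgeR adjusted p = 0.00845).

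In all other cells Serpine2 moved the opposite way, from 17.3, 22 and 24.2 CPM in wt mice to 51.0, 51.2 and 50.4 CPM in KO mice (log2 fold change 1.22, edgeR adjusted p = 1.84e-04). The difference between the selected and the other cells was -2.39 ± 0.27 on the log2 scale (SE, limma adjusted p = 7.24e-04). Among selected cells with 10 or more platelet-gene UMIs Serpine2 was at 67.8, 78.4 and 41.9 CPM (KO) and 92.2, 173 and 107 CPM (wt) (log2 fold change -1.12, edgeR adjusted p = 0.0354). The fall within the selected cells ended without KO3 (-1.14, edgeR adjusted p = 0.0721), without WT2 (-0.96, 0.261), and with the prefix covariate (-0.56, 0.723), while the limma difference passed in each of the 9 settings tried.

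Vwf (chromosome 6, 125546774 to 125686679, plus strand) stood at 20.5, 11.6 and 20.7 CPM in KO mice against 46.8, 66.5 and 33.1 CPM in wt mice. Every wild type sample was higher, with a log2 fold change of -1.46 ± 0.29 (SE, edgeR adjusted p = 0.0120). It was -1.34 among cells with 10 or more platelet-gene UMIs (edgeR adjusted p = 0.0255). In the other cells Vwf was near 1 CPM in both genotypes (-0.81, edgeR adjusted p = 0.0950), and the difference between the cell groups was -0.62 (limma adjusted p = 0.633). The call ended without WT2 (-1.13, edgeR adjusted p = 0.275) and with the prefix covariate (-1.46, 0.319). Ppbp, the platelet basic protein of the same granules, went the other way without passing, at 48.4, 40.6 and 22.5 CPM against 13.8, 18.8 and 26.5 CPM (0.83, edgeR adjusted p = 0.353). Mmrn1 (multimerin 1, -0.46, edgeR adjusted p = 0.571) and Srgn (serglycin, the proteoglycan of granules, 0.15, 0.674) did not pass either.

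Of the 20 adhesion receptor genes, integrins and receptors for collagen or podoplanin, 11 were tested, and the median log2 fold change was 0.20. Of the 11, 0 rose and 1 fell, where 0.286% and 0.74% of all tested genes did. The 1 that fell was Cd9 (chromosome 6, 125460266 to 125494791, minus strand), a tetraspanin that associates with platelet integrins. It stood at 299.9, 244 and 298 CPM in KO mice against 396, 517 and 452 CPM in wt mice, without overlap (-0.74 ± 0.11, SE, edgeR adjusted p = 0.00114). Cd9 also fell in all other cells (-0.82, edgeR adjusted p = 0.00148), and the difference of 0.08 between the cell groups did not pass (limma adjusted p = 0.821). It was -1.12 among cells with 3 to 9 platelet-gene UMIs (edgeR adjusted p = 0.00601) and -0.44 with 10 or more (0.136), and the prefix covariate ended the call (-0.61, 0.163).

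Itga2b did not follow Cd9. It stood at 268, 216 and 235 CPM (KO) and 168, 231 and 204 CPM (wt), with overlap (0.20 ± 0.13, SE, edgeR adjusted p = 0.622). Its partner Itgb3 (0.30, edgeR adjusted p = 0.836), Treml1 (-0.15, 0.867) and Pecam1, the adhesion molecule CD31 (0.50, 0.579), did not pass. Clec1b with 44 UMIs and Gp1ba with 37 were too low to be tested.

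Of 19 receptors for agonists and growth factors 12 were tested, with a median of -0.10. Of the 12, 1 rose and 1 fell, where 0.286% and 0.74% of all tested genes did. Summed over the list, the level was 784 to 846 CPM in KO mice against 600 to 728 CPM in wt mice, without overlap. In the other cells the sum was 352 to 379 and 294 to 328 CPM. Adgrg1, an adhesion G protein-coupled receptor also called GPR56, stood at 374, 322 and 341 CPM in KO mice against 231, 249 and 187 CPM in wt mice (0.60 ± 0.12, SE, edgeR adjusted p = 0.0164), and rose in the other cells too (0.78, edgeR adjusted p = 4.57e-04). Its call in the selected cells ended without KO1 (0.54, edgeR adjusted p = 0.107), KO3 (0.62, 0.0667) or WT3 (0.46, 0.148). Ptger3, a prostaglandin E2 receptor, stood at 17.6, 10.1 and 10.8 CPM against 27.5, 31.8 and 43.1 CPM (-1.40 ± 0.31, SE, edgeR adjusted p = 0.0227), and was lower in the other cells (-0.94, 5.95e-04). That call ended without KO2 (-1.31, edgeR adjusted p = 0.0593), KO3 (-1.25, 0.118), WT2 (-1.51, 0.0885) or WT3 (-1.22, 0.216). The thrombin receptor genes F2r (0.52, edgeR adjusted p = 0.287) and F2rl2 (-0.01, 0.992) and the ADP receptor P2ry1 (-1.0, 0.186) did not pass.

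Genes of dense granules and secretion (14 tested, median 0.19) and of platelet signalling (19, -0.06) held none past the edgeR threshold. Neither did eicosanoid and redox enzymes (12, -0.07) or the cytoskeleton (28, 0.10). In this order 3, 2, 3 and 3 members had a nominal p under 0.05, where 10.6% of all genes did. The summed dense granule list stood at 1375 to 1536 CPM in KO mice against 1114 to 1308 CPM in wt mice, without overlap. In the other cells it stood at 887 to 919 and 785 to 850 CPM. The sums of the signalling, enzyme and cytoskeleton lists overlapped between the genotypes. The focal adhesion gene Zyx came nearest at 233, 207 and 203 CPM against 99.0, 158 and 154 CPM (0.57, edgeR adjusted p = 0.0523), and protein kinase C alpha, Prkca, stood at -0.82 (0.0720). SDPR, the files' symbol for the caveolar protein Cavin2, stood at 76.3, 56.5 and 63.1 CPM in KO mice against 79.8, 123 and 113 CPM in wt mice. WT1 lay close to KO1, and the fall of -0.74 (edgeR adjusted p = 0.0388) was -0.40 among cells with 10 or more platelet-gene UMIs (0.467). It ended without any of KO1, KO2, KO3, WT2 and WT3 (-0.88 to -0.64, edgeR adjusted p = 0.0539 to 0.300).

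**Figure D4:**
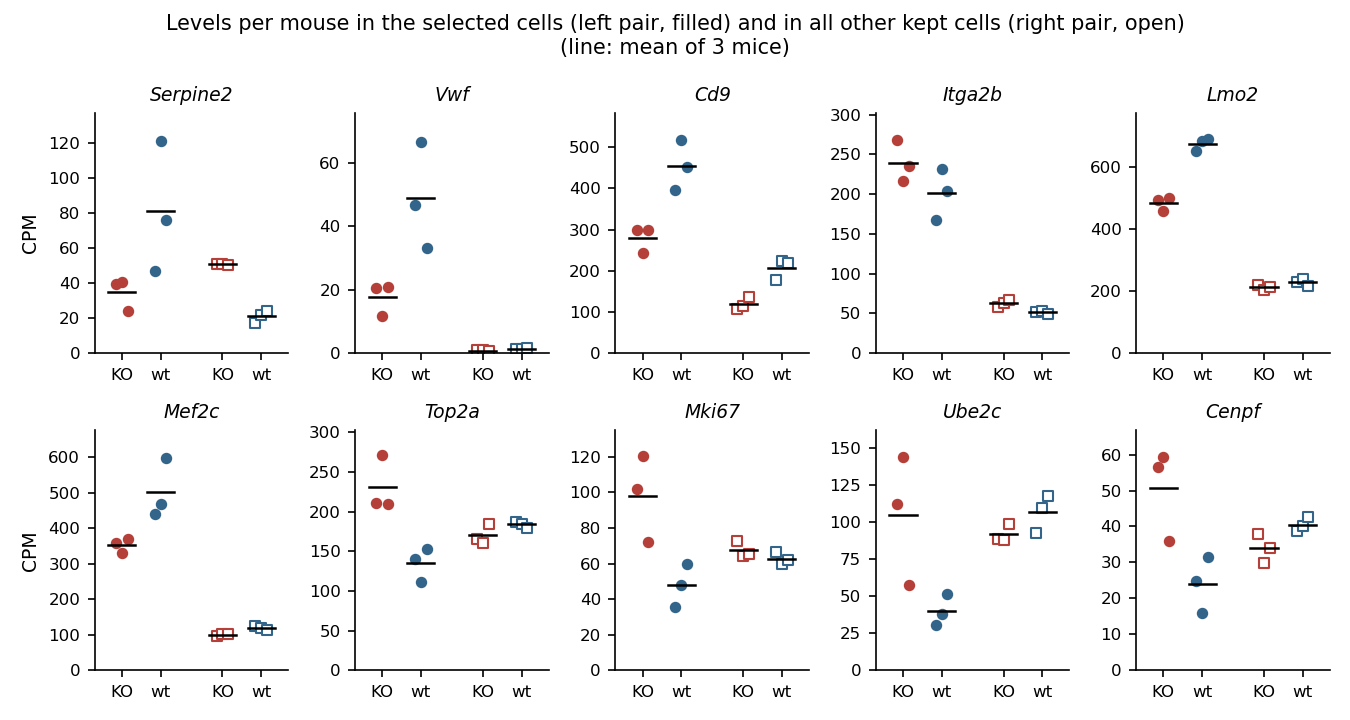
Level of 10 genes in CPM per mouse, in the selected cells (filled circles, left) and in all other kept cells (open squares, right). Lines are means of 3 mice. Serpine2 is lower in the knockout mice among the selected cells and higher among the other cells, and Top2a, Mki67 and Ube2c are higher in the knockout mice in the selected cells.

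Of 28 transcription factors of the megakaryocyte lineage 25 were tested, with a median of 0.07. Of the 25, 0 rose and 2 fell, where 0.286% and 0.74% of all tested genes did. Lmo2, the bridging protein of the Gata and Tal1 complexes, stood at 494, 460 and 500 CPM in KO mice against 652, 684 and 689 CPM in wt mice. The genotypes did not overlap (-0.52 ± 0.10, SE, edgeR adjusted p = 0.0129). Mef2c, a MADS box factor of megakaryocytes and lymphoid cells, stood at 359, 329 and 368 CPM against 440.1, 468 and 598 CPM (-0.56 ± 0.12, SE, edgeR adjusted p = 0.0163). In the other cells Lmo2 was -0.14 (edgeR adjusted p = 0.253) and Mef2c -0.28 (0.0311), and neither difference between the cell groups passed in limma (-0.39, adjusted p = 0.0758, and -0.26, 0.421).

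Within the ends of the range, Lmo2 was -0.65 with 3 to 9 platelet-gene UMIs (edgeR adjusted p = 0.0252) and -0.41 with 10 or more (0.177), and Mef2c was -0.39 (0.616) and -0.47 (0.113). With thinned cells Lmo2 was -0.23 (edgeR adjusted p = 0.831) and Mef2c -0.34 (0.697). Both calls ended without 1 knockout library, Lmo2 at -0.53, -0.50 and -0.54 (edgeR adjusted p = 0.0776, 0.0632 and 0.0710) and Mef2c at -0.57, -0.53 and -0.59 (0.0848, 0.0748 and 0.0728) without KO1, KO2 and KO3, and Mef2c also without WT3 (-0.43, 0.145). The factors that define the lineage did not pass: Gata1 (0.04, edgeR adjusted p = 0.969), Fli1 (0.03, 0.966), Runx1 (0.07, 0.946), Gata2 (0.02, 0.974), Nfe2 (0.36, 0.353), Zfpm1 (-0.07, 0.915) and Gfi1b (0.35, 0.645). Gata1 stood at 74.8, 55.1 and 59.5 CPM (KO) and 77.0, 56.4 and 54.7 CPM (wt).

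Genes of mitosis had positive fold changes throughout their list, and few of them passed. Of 28 listed genes of G2/M phase and cytokinesis 20 were tested, 3 rose and 0 fell, where 0.286% and 0.74% of all tested genes did. A nominal p under 0.05 was reached by 13 of the 20, against 10.6% of all tested genes. All 20 had a positive log2 fold change, with a median of 0.72 against -0.00 over all genes, and 8 of 20 did not overlap between genotypes where 16.5% of all genes did not. Such genes move together in dividing cells, so the count of signs is not a count of independent observations. Summed over the list, the level was 1557, 2005 and 1378 CPM in KO mice against 1103, 796 and 1289 CPM in wt mice, while in the other cells it was 1408 to 1567 and 1437 to 1620 CPM.

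Top2a, the topoisomerase that untangles chromosomes (chromosome 11, 98992943 to 99024189, minus strand), stood at 210.4, 271 and 209.9 CPM in KO mice against 140.3, 111 and 152 CPM in wt mice (0.73 ± 0.15, SE, edgeR adjusted p = 0.0170). Mki67, the proliferation antigen Ki-67, stood at 102, 120.3 and 72.1 CPM against 35.8, 47.7 and 59.7 CPM (0.93 ± 0.22, SE, edgeR adjusted p = 0.0412). Ube2c, the ubiquitin-conjugating enzyme of the anaphase-promoting complex, stood at 112, 144 and 57.7 CPM against 30.3, 37.6 and 51.4 CPM (1.28 ± 0.29, SE, edgeR adjusted p = 0.0316). None of the 3 overlapped, but KO3 lay near WT3 for Mki67 and Ube2c.

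In all other cells these genes did not pass: Top2a was -0.14 (edgeR adjusted p = 0.284), Mki67 0.07 (0.633) and Ube2c -0.25 (0.144). The difference between the cell groups passed for Top2a (0.86, limma adjusted p = 0.0233), Ube2c (1.47, 0.0238), Nusap1, a spindle protein (1.24, 0.0422), and Cenpf, a centromere protein (1.27, 0.0462), and not for Mki67 (0.89, 0.102). Top2a was at 0.76 with 10 or more and at 0.78 with 3 to 9 platelet-gene UMIs, and neither passed (edgeR adjusted p = 0.122 and 0.0693). With thinned cells Top2a was 0.09 (edgeR adjusted p = 0.984), while Mki67 and Ube2c were too low to be tested. Top2a also ended at a threshold of 2 platelet-gene UMIs (0.47, edgeR adjusted p = 0.109), and the prefix covariate ended Top2a (0.57, 0.461), Ube2c (1.62, 0.323) and Mki67 (1.30, 0.287). Removing doublets ended Ube2c (1.22, edgeR adjusted p = 0.0777) and Mki67 (0.92, 0.0538). The edgeR calls also depended on single libraries. Top2a ended without KO2 (0.60, edgeR adjusted p = 0.0748) or WT2 (0.56, 0.275), Ube2c without KO1 (1.2, 0.112), KO2 (1.03, 0.0760), WT2 (1.17, 0.286) or WT3 (1.49, 0.0539), and Mki67 without any single library but KO3 (0.78 to 1.10, 0.0660 to 0.286).

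Of 23 tested S phase genes, which act in DNA replication, 0 passed in edgeR. A nominal p under 0.05 was reached by 3 (1 higher and 2 lower), against 10.6% of all tested genes. Of the 23 S phase genes, 14 had a positive log2 fold change, and the median was 0.07. Their summed level was 2127, 2116 and 2251 CPM in KO mice against 2022, 2075 and 2049.9 CPM in wt mice, without overlap, and the difference between the S phase and mitotic lists was not tested. The median over 9 cyclins and inhibitors was -0.11, with 0 past the threshold and 3 at a nominal p under 0.05. Ribosome biogenesis and Myc target genes lay on the lower side in 17 of 17 tested members with a median of -0.22, but 0 passed in edgeR and 2 had a nominal p under 0.05.

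Of 17 tested stem cell genes 0 rose and 2 fell, where 0.286% and 0.74% of all tested genes did. The 2 that fell were both interferon-inducible membrane proteins. Ifitm1 stood at 100.5, 79.7 and 114 CPM in KO mice against 283, 263 and 235 CPM in wt mice (-1.42 ± 0.14, SE, edgeR adjusted p = 9.12e-06), a fall that held without each library in turn but was -0.52 with thinned cells (edgeR adjusted p = 0.785). It was smaller than in all other cells (-2.89), by 1.46 ± 0.11 on the log2 scale (SE, limma adjusted p = 1.99e-05). Ifitm3 stood at 529, 384 and 531 CPM against 787, 908 and 892 CPM (-0.88 ± 0.12, SE, edgeR adjusted p = 3.36e-04) and also fell in the other cells (-0.64, 0.00193). Without these 2 the list held no call: Hlf was -0.84 (edgeR adjusted p = 0.297), Mecom -0.77 (0.503), Kit -0.20 (0.774) and Cd34 0.58 (0.128).

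Sox4, a progenitor factor, rose from 146, 149 and 159 CPM in wt mice to 238, 232 and 234 CPM in KO mice (0.59 ± 0.12, SE, edgeR adjusted p = 0.0156). Since Sox4 was higher in cells with 3 to 9 platelet-gene UMIs, which were more common among knockout cells, its values within the ends of the range were 0.31 with 3 to 9 (edgeR adjusted p = 0.701) and 0.64 with 10 or more (0.258). The call ended without KO1, KO3, WT2 or WT3 (0.55 to 0.61, edgeR adjusted p = 0.0631 to 0.119).

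Some calls sat on abundant genes of other cells. S100a8, a calprotectin subunit of neutrophils, rose from 24.8, 13 and 39.8 CPM in wt mice to 88.0, 135 and 65.8 CPM in KO mice, with a log2 fold change of 1.83 in the selected and 1.81 in all other cells (edgeR adjusted p = 0.00387 and 0.0273). Mcpt8 fell by 1.23 and by 1.17 on the log2 scale (edgeR adjusted p = 0.00116 and 2.73e-04), and the immunoglobulin gene Igha by 1.54 and by 2.06 (0.0102 and 0.0298). S100a8 and Mcpt8 were at 61.0 and 139 CPM in the selected cells (mean of 6 samples) against 1986 and 4538 CPM in the others. Summed over 14 neutrophil genes, the selected cells held 586 to 700.2 CPM in KO and 385 to 723 CPM in wt mice, where the other cells held 14685 to 17809 and 4998 to 9283 CPM. Over 12 basophil and mast cell genes they held 319.7 to 405 and 438 to 572 CPM, against 7711 to 9939 and 13603 to 16417 CPM in the other cells. The part of free RNA or of mixed droplets in these 3 calls was not tested. The S100a8 call ended without WT2 (1.38, edgeR adjusted p = 0.110), and the Igha call without KO1 (-1.14, 0.0618), KO3 (-1.57, 0.0602) or WT3 (-1.17, 0.133).

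The other large changes were in genes outside the lists. Higher in knockout cells were Ptms, the chromatin protein parathymosin (1.12), Cst7, cystatin F (0.91), Sept1, a septin (0.78), and Tspan32, a tetraspanin of blood cells (0.54), with edgeR adjusted p between 0.0120 and 0.0475. Lower were Puf60, a splicing factor (-1.23), Erh (-0.96), Polr2l, a subunit of RNA polymerases (-0.96), Nfkbia, the NF-kappa-B inhibitor (-0.94), Ramp1, a receptor activity modifying protein (-0.84), Apoe, apolipoprotein E (-0.70), Rpl35, a ribosomal protein (-0.68), and Hmgn2, a nucleosome-binding protein (-0.65), with edgeR adjusted p between 0.00115 and 0.0316. Puf60, Hmgn2, Ramp1, Ptms and Sept1 also passed the test of the difference from all other cells in limma. Of 9 settings tried for that difference, Hmgn2 passed in 9, Puf60 and Sept1 in 7, Ramp1 in 5 and Ptms in 3. The edgeR calls of Puf60, Erh, Polr2l and Hmgn2 held without each library in turn.

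Leaving out 1 library ended the edgeR calls of Cst7 (KO1, KO2, KO3, WT1 or WT2, 0.76 to 1.0) and Sept1 (all but WT1, 0.63 to 0.94). It also ended those of Tspan32 (KO1, KO3, WT2 or WT3, 0.53 to 0.58) and Ptms (KO1, WT2 or WT3, 1.0 to 1.11). Among the lower genes the calls of Nfkbia (KO1, KO2, KO3 or WT3, -0.97 to -0.61) and Ramp1 (KO1 or WT2, -0.80 and -0.78) ended. So did those of Apoe (KO1, -0.58) and Rpl35 (KO3, -0.59). Nfkbia was -1.31 with 3 to 9 platelet-gene UMIs (edgeR adjusted p = 0.0252) and -0.64 with 10 or more (0.603). At a threshold of 5 platelet-gene UMIs it was -0.52 (edgeR adjusted p = 0.498).

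**Figure D5:**
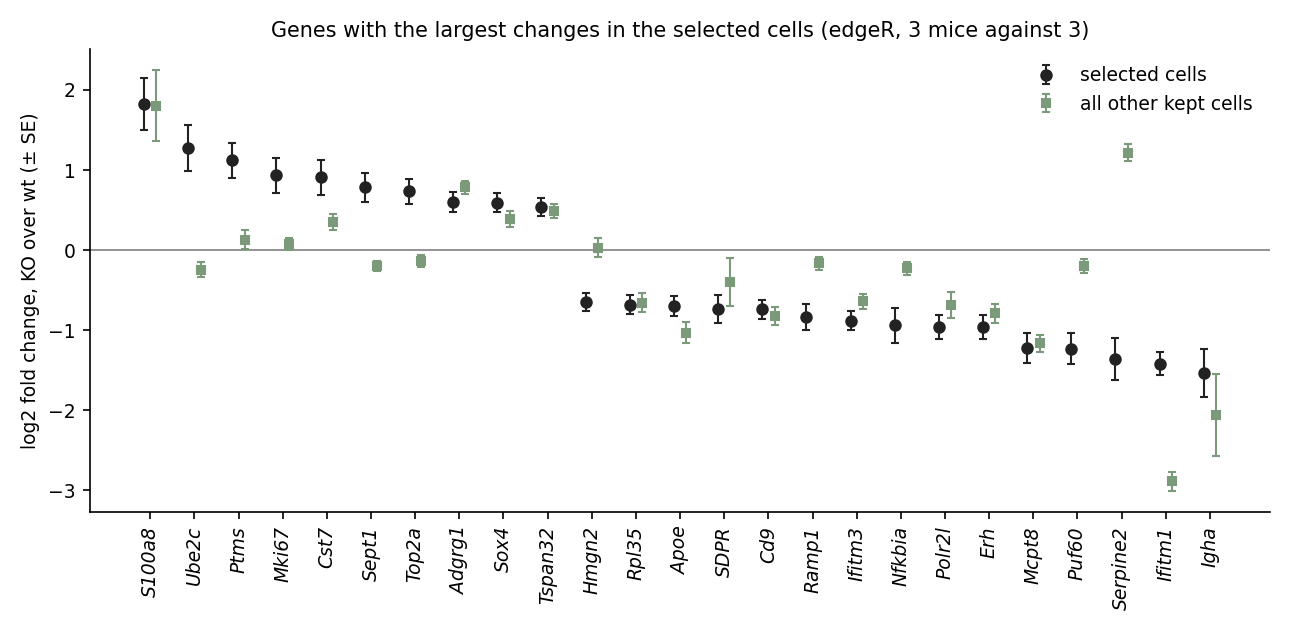
Log2 fold change of knockout over wild type with its SE, for the genes with the largest called changes and a mean of at least 50 CPM, in the selected cells (circles) and in all other kept cells (squares). S100a8, Cd9, Rpl35 and Mcpt8 lie at nearly the same value in both, Ube2c, Top2a and Sept1 differ between them, and Serpine2 lies on opposite sides of 0.

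The last comparisons asked whether the changes differed from those in other cells. Against the Klf1-positive platelet-gene cells (80782 to 688289 UMIs per sample, 8 cells in WT1), 0 of 3076 tested genes differed by limma, 0%, with 140 at a nominal p under 0.05. With the prefix covariate, which rests on the 8 cells of WT1 for its wild type side, 165 differed. In those cells alone edgeR called 9 of 3082 genes (0.292%), 5 of them shared in direction with the 61, and Cd9 was at -1.32 (edgeR adjusted p = 0.0359). Of the mitotic genes, Top2a was at 0.98 (edgeR adjusted p = 0.0921) and Mki67 at 0.52 (0.992), while Ube2c at -0.36 (0.992) and Cenpf at -0.28 (0.992) had the opposite sign to the selected cells. Ube2c was the 1 gene of the 39 tested in both whose sign differed. Against all other kept cells 57 of 5943 genes differed by limma (0.959%), 38 with a more positive and 19 with a more negative change in the selected cells, and 15 of them were among the 61. The counts were 19, 22, 26 and 27 without KO1, KO2, KO3 and WT2.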

How the data were processed

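Single cells were profiled with the 10x Chromium 3' version 2 chemistry, per the labels. Raw UMI counts by cell and gene, with a cluster assigned to each cell, were deposited by the authors in 1 table per sample; aligner and genome build: not given in the sources used here. A gene missing from 1 table was set to 0 there (13876 of 18011 symbols were in every table). Symbols were matched to GENCODE M21 (GRCm38), which gave the coordinates printed, though the authors may have used another build.

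Cells with at least 500 genes were kept. Doublets were kept in the values reported: a simulated-doublet score at 0.8% per 1000 cells marked 8 selected cells. Of 25237 barcodes 391 occurred in more than 1 library (1.55%), 0 of them in 2 selected cells. Counts of the selected cells were summed per sample and tested with edgeR 4.0.16 (R 4.3.3; TMM factors, low-count filter, quasi-likelihood test, Benjamini-Hochberg over all tested genes at 0.05). Differences between cell groups were tested with limma 3.58.1 on each sample's difference in log2 CPM. Counts of listed genes higher or lower in 6 of 6 samples cover genes with at least 50 UMIs in the selected cells, a minimum set after seeing the data. Per-sample values were compared with 2-sided exact permutation tests. Python 3.11.15 was used for the rest. Thinned shares are the expected share over random draws of 2000 UMIs per cell, and the thinned share of all kept cells is the mean of 10 draws.

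On simulated counts of 5959 genes the edgeR step recovered 96.2% of 182 changed genes with 4 false calls, and the limma step 92.9% with 6. How recovery varies with the size of the fold change or with the spread between samples was not tested. These percentages therefore do not give the recovery for changes of the sizes reported above, and they check only that the steps run correctly.

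Genes named are the called genes with no overlap and an average of 50 CPM or more, up to 15 in each direction, up to 5 members of each list with the smallest p, a set of platelet and lineage genes, and the leading genes of the difference tests; predicted genes are not named, and some genes under this rule are not reported here. The cell selection, the lists, the split at 10 platelet-gene UMIs and the tests were chosen with earlier results of these data known. Alternatives were DESeq2 1.42.0, RLE factors, no low-count filter, the title code prefix as a covariate, the XA samples alone (WT1 then assumed to vary like the knockout samples), thresholds of 2 and 5 UMIs, thinning, doublets removed and each library left out; those at 10 or more and at 3 to 9 platelet-gene UMIs were added after seeing the data. The labels tie each sample to a genotype and do not say how the mice were handled. The p-values set the difference between genotypes against the spread between these samples, which edgeR and limma estimate partly from all tested genes. They do not separate genotype from any handling that differed with it.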

Additional observations from a re-analysis of the deposited data

Results flagged for a closer look

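These genes changed differently between the genotypes in the selected cells and in all other kept cells, by limma on 1 difference per mouse (3 against 3, adjusted p under 0.05). Each value is the log2 fold change in the selected cells minus that in the other cells. No explanation was tested, and the other cells mix many cell types whose shares differed between the genotypes.

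The value was negative for Serpine2 (-2.39), where the cell groups moved in opposite directions, and for Gstm1, a glutathione transferase (-1.95), which was lower in selected knockout cells without passing (-0.82, edgeR adjusted p = 0.0639) and rose in the others (1.15, 0.00152). It was also negative for the granule protease gene Prtn3 (-1.28), S100a9 (-1.01), Puf60 (-0.98), Ramp1 (-0.69) and Hmgn2 (-0.67). Of 9 settings tried, Prtn3 passed in 4, Ramp1 in 5 and Puf60 in 7, while Serpine2, Gstm1, S100a9 and Hmgn2 passed in each.

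Among genes of mitosis it was positive for Ube2c (1.47), Cenpf (1.27), Nusap1 (1.24) and Top2a (0.86). Without KO1, KO2 or WT2 these 4 differences no longer passed in limma.

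It was positive for Hbb-bs, beta globin (2.67), with 74 UMIs in the selected cells, and for Irf8 (1.96), Ifitm1 (1.46), Prdx4 (1.40), Slpi (1.38), Cd48 (1.25), Selplg (1.22), Cpa3 (1.18), Btg1 (1.16), Sept1 (0.98), Tmsb10 (0.94), Ptms (0.92), Fcer1g (0.70) and Ly6e (0.56). Of 9 settings tried, Ptms passed in 3, Fcer1g in 4, Ly6e in 6, Cpa3 and Sept1 in 7 and Slpi in 8. Irf8 passed in 4 of 8, and the other genes of this list passed in each setting. Irf8 was 38.5 and 11.3 CPM in selected KO and wt cells, with overlap (1.5, edgeR adjusted p = 0.235).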

How the results depend on the processing

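The share of selected cells stayed higher in KO mice under all alternatives run (1.72-fold to 2.38-fold), without overlap in each that kept all 6 samples. The ratio of shares with later platelet transcripts, 1.06, ran from 0.888 without WT1 to 1.21 without WT3 and was 0.985 without KO3, so it has no direction here. For 61 called genes, DESeq2 gave 29, no low-count filter 126, the prefix covariate 10, thinned cells 4, 10 or more platelet-gene UMIs 31, 3 to 9 UMIs 21, and leaving out 1 library 27 (KO3) to 81 (WT1). For the difference from Klf1-positive cells, 0 by limma, the prefix covariate gave 165, with 685 of 3076 genes at a nominal p under 0.05. For the difference from all other cells, 57, no filter gave 115, the prefix covariate 277 and leaving out 1 library 19 (KO1) to 84 (WT3). Apart from fewer cells, UMIs, genes or samples where the alternative removes them, the cause was not tested.

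With RLE factors every named gene kept its call or lack of one. DESeq2 ended the calls of Adgrg1, Cst7, Igha, Mki67, Nfkbia, Ptger3, SDPR, Sept1, Sox4 and Top2a. With all 3 KO samples and WT1 sharing the prefix XA, prefix and genotype are partly confounded. In WT1, 36 selected cells set the precision. No paired analysis was possible because the labels give no replicate number that the genotypes share.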

Other observations

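Some of the clearest genes of the selected cells are on no platelet list, and were picked after their values were seen. Slc14a1 among them is on the list of early red cell genes. Nrgn, the calmodulin-binding protein neurogranin, stood at 415 CPM (mean of 6 samples) against 38.5 CPM in all other cells, Gng11, a G protein gamma subunit, at 152 against 20.3 CPM, the urea transporter gene Slc14a1 at 159 against 13.1 CPM and the transcription factor gene Mycn at 68.2 against 7.05 CPM, each higher in 6 of 6 samples.

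The Klf1-positive cells that otherwise met the rule had Car1, carbonic anhydrase 1 of the red cell path, at 1054 CPM against 60.1 CPM in the selected cells, the erythropoietin receptor gene Epor at 33.4 against 17.2 CPM and Gata1 at 95.6 against 62.9 CPM. Their Itga2b level was 135 against 220.3 CPM and their Vwf level 11.3 against 33.2 CPM. These are descriptions, since Klf1 divides the cells.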
